A study of Sparassis latifolia with 15 samples.

Results

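ATAC-seq marks accessible DNA by the places where a transposase inserts sequencing adapters, and the 234 regions described here are the peaks that the study listed as gained in mycelium of Sparassis latifolia after 1 h of white light (L) over dark mycelium (D). They are all the peaks of that deposited list, out of 4187 peaks in 4 lists, the others being 273 peaks lost in L vs. D and, for primordia (P), 1768 gained and 1912 lost in P vs. D. Every sample came from strain SP-C grown in cultivation bags, with 2 ATAC-seq and 3 RNA-seq libraries per group. By the labels D was sampled at 28 d, L at 30 d and P at 42 d, whereas by the study's methods L was dark mycelium of 28 d that then received 1 h of light, and P had formed from such mycelium under a daily light and dark cycle. One strain was used, so other strains are not covered. The members were chosen by the L vs. D contrast itself, so their score is a description and was not tested. Values per library are not in the lists. Replicate spread and the depth behind a peak therefore could not be given, and the direction of each peak rests on the list it was deposited in. For whole ATAC-seq libraries, the study reports more mapped reads and more called peaks in each L library than in either D library. It reports a lower share of mapped reads in P than in D or L. Whether these differences bear on the lists was not tested.

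In fungi, the white collar proteins are blue-light receptors that also act as transcription factors, and in Neurospora crassa they bind promoters of light-induced genes within minutes of illumination. In mushroom-forming basidiomycetes light is a common trigger of primordia, the first knots of hyphae that grow into fruiting bodies. Open chromatin is found at promoters and at other sites where such regulators bind DNA, as well as in gene bodies.

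The regions gained after 1 h of light were narrow. Their median width was 328 bp (quartiles 213 and 528 bp), against 739 bp for the peaks lost in L vs. D, 1319 bp for those gained in P vs. D and 490 bp for those lost in P vs. D. Of the 234 peaks, 50 (21.4%) were under 200 bp, whereas 2.20% of the peaks lost in L vs. D and 0.792% of those gained in P vs. D were that narrow. Another 120 were 200 to 500 bp wide, 45 were 500 to 1000 bp wide, and 19 (8.12%) were at least 1000 bp wide, against 38.8% and 62.4% in the same 2 lists. The narrowest spanned 149 bp. All 234 peaks together covered 113960 bp, against 267723 bp in the 273 lost peaks. Peaks are not replicates, so no test was made between lists.

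**Figure D1:**
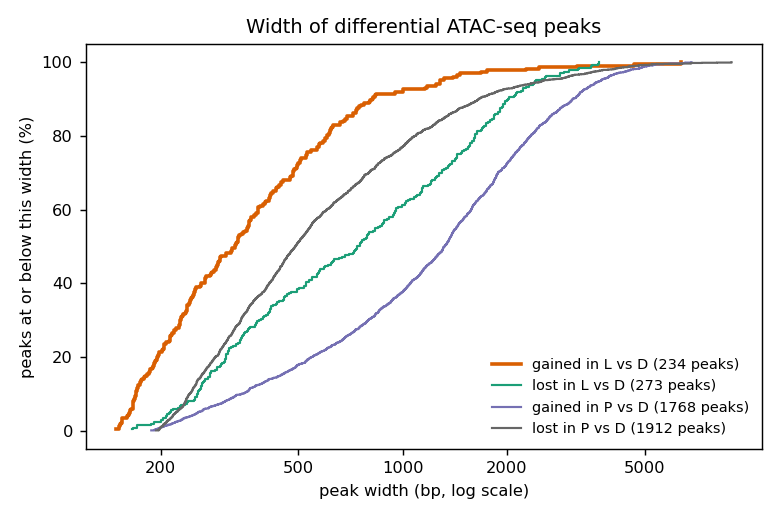
Cumulative share of peaks (y axis, percent) by peak width in bp (x axis, log scale) for the 4 deposited lists, 1 line per list. The line of the 234 peaks gained in L vs. D lies to the left over most of its length, with a median of 328 bp against 1319 bp for the peaks gained in P vs. D.

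Each peak carries a score from the authors, whose unit is unknown. Its median in the 234 peaks was 3.77 (quartiles 2.71 and 5.53), the lowest value was 1.45 and the highest 24.5, whereas the peaks lost in L vs. D reached 1096 with a median of 11.6. Of the gained peaks 79 (33.8%) scored at least 5. The 5 peaks of lowest score lie on contig 9 at 566201-566395 (1.45) and 723786-723956 (1.55), contig 76 at 123642-123796 (1.55), contig 87 at 102852-103147 (1.58) and contig 1 at 1473515-1473674 (1.598), the last tied with a 236 bp peak of contig 23. The study set its threshold on fold change and on a p under 0.05, and it names no adjustment of that p. The list holds neither fold change nor p, so the members nearest to the threshold could not be picked out. Peaks beyond it were not analysed here.

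The score followed width. Its median was 2.72 among the 50 peaks under 200 bp, 3.51 from 200 to 500 bp, 5.23 from 500 to 1000 bp and 10.3 among the 19 peaks of at least 1000 bp. Across the 234 peaks Spearman's rho was 0.62. All points share the same libraries, so this is a description of the list. The highest score belonged to the widest peak, 6369 bp on contig 39 from 377187 to 383555 (score 24.5), and the next to the second widest, 4650 bp on contig 174 from 7018 to 11667 (score 19.9). The next scores were 17.1 on contig 45 (119041-120291), which the study paired with U13, a hypothetical protein, and 16.8 on contig 16 (765647-767107), paired with U5, another hypothetical protein. Then came 15.5 on contig 63 (62652-63935), in the promoter of U15, the white collar 1 protein. After the first pair, the widest peaks were 3186 bp on contig 16 (770022-773207), 2477 bp on contig 28 (271896-274372), in the promoter of the hydrophobin gene U10, and 2270 bp on contig 39 (409999-412268), near U11, gluconate transport inducer 1.

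The peaks spread over 65 contigs, of which 26 held a single peak, and 12 contigs held at least 50% of them. Contig 1 held 21 peaks (8.97%), contig 8 held 11, and contigs 6, 16, 18 and 23 held 10 each. The contigs differ in length, which was not at hand, and the last peak of any list ended at 2154 kb on contig 1 and at 844 kb on contig 8. Of the 65 contigs 44 also held a peak lost in L vs. D, and 21 contigs with 61 gained peaks held none. Contig 8 had 11 gained and 0 lost peaks and contig 18 had 10 and 0, and both held peaks lost in P vs. D (38 and 18). Contigs 2 and 3 went the other way, with 7 gained and 15 lost and with 2 gained and 15 lost. Only 8 peaks (3.42%) lay on contigs numbered above 100, against 6.59% of the peaks lost in L vs. D, 3.11% of those gained in P vs. D and 12.1% of those lost in P vs. D. Of these 8, 3 lay on contig 167 and 1 each on contigs 146, 174, 256, 333 and 477. The peaks on contigs 174, 256 and 333, with scores of 19.9, 3.77 and 12.8, were the only ones of any of the 4 lists on these contigs.

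**Figure D2:**
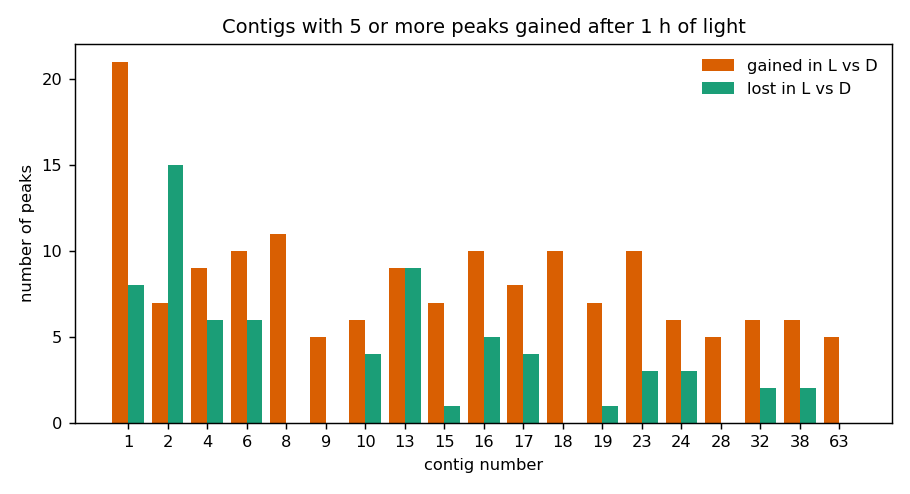
Number of peaks (y axis) on each contig with 5 or more peaks gained in L vs. D (x axis, contig number), with gained peaks beside peaks lost in L vs. D. Contig 1 holds 21 gained and 8 lost peaks, contig 8 holds 11 gained and 0 lost, and contig 2 holds 7 gained and 15 lost.

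Of the gained peaks, 5 lay within 5 kb of a peak lost in L vs. D, and the shortest distance was 2000 bp, on contig 4 from 739354 to 739528. Both lists come from 1 comparison over 1 set of numbered peaks, so the same peak could not be in both. The IDs of the peaks rose along the contigs without exception in both lists of L vs. D and reached 12778. If they number all peaks that were compared, the gained peaks are at most 1.83% of them and the lost ones at most 2.14%.

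Some of the gained peaks stood close together. The median distance between the edges of a peak and its nearest neighbour in the list was 24581 bp, but 41 peaks (17.5%) had a neighbour within 1 kb and 62 (26.5%) within 5 kb. In the list lost in L vs. D, 17.6% had a neighbour of their own list within 1 kb and 32.2% within 5 kb. The shares were 27.7% and 62.4% among the peaks gained in P vs. D, which are more numerous, so the shares cannot be compared between lists of unequal size. The 62 peaks formed 26 clusters, 18 of 2 peaks, 7 of 3 and 1 of 5, which spanned 568 to 12477 bp (median 1920 bp). In 22 of the 26 clusters the IDs were unbroken, so that no listed number was skipped between the first and the last gained peak. None of the clusters held a peak lost in L vs. D (0 of 26). Median width was 391.5 bp in clusters and 289.5 bp in the other 172 peaks, and median score 4.94 and 3.41.

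The largest cluster covered 12477 bp on contig 16 from 760731 to 773207 and held 5 gained peaks, which filled 55.8% of it. Their widths were 1278, 293, 1461, 749 and 3186 bp and their scores 6.92, 4.07, 16.8, 6.61 and 14.3, in order along the contig. The study paired the first and the second with U4 (Gglean002720) and the third with U5 (Gglean002890). Of the 7 clusters of 3 peaks the one with the highest score, 3621 bp on contig 63 at 60315-63935, held peaks of 164, 203 and 1284 bp, and the study placed the second in an exon and the third in the promoter of the white collar 1 gene. A further 2 gained peaks lay on the same contig from 53153 to 53347 and from 53380 to 53720, only 32 bp apart, so that all 5 gained peaks of contig 63 lay between 53153 and 63935. Contig 6 had 3 peaks from 861514 to 863921 (scores 14.02, 7.75 and 3.14), and contig 167 had 3 from 10850 to 12834 (scores 4.22, 11.96 and 5.83). The other clusters of 3 were on contig 32 (46326-49125), contig 24 (364789-365907 and 423115-429664) and contig 1 (1278367-1284979). The clusters of 3 outside contig 63 held no peak paired with a U gene. A pair on contig 39 (373641-383555) held the highest score of the list, 24.5.

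**Figure D3:**
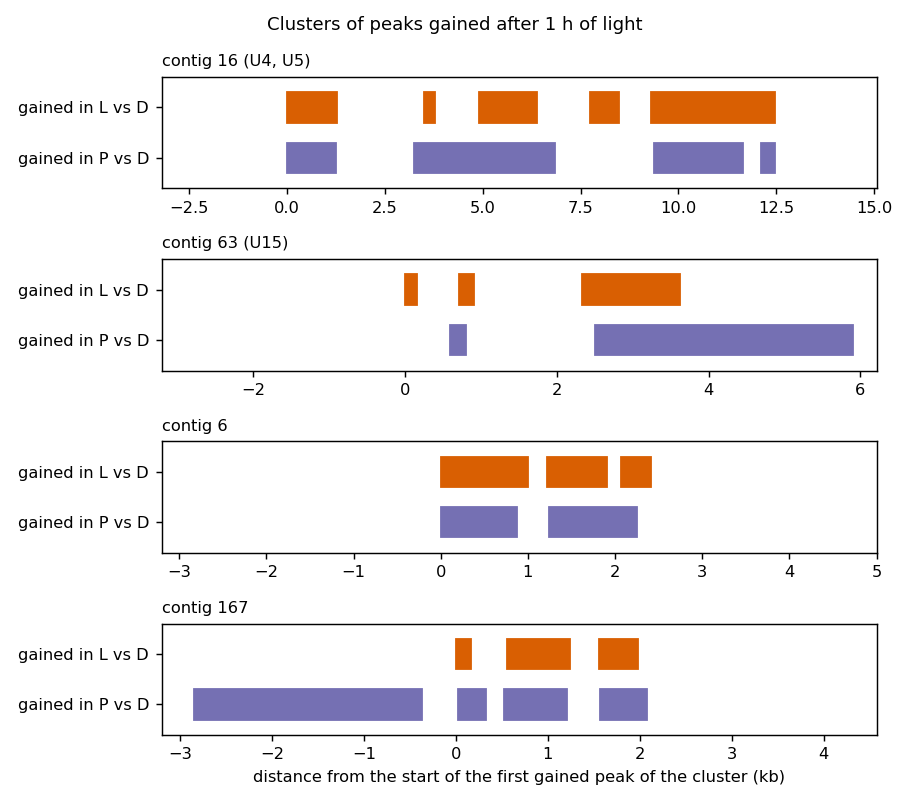
Maps of the cluster of 5 peaks (contig 16) and of the 3 clusters of 3 peaks with the highest scores, with distance from the start of the first gained peak in kb on the x axis. The upper row of boxes shows peaks gained in L vs. D and the lower row peaks gained in P vs. D, drawn to scale. Of the 5 peaks on contig 16, 4 overlap a peak gained in primordia, as do 2 of 3 on contig 63 and all 3 on contigs 6 and 167.

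Whether a region that opened after 1 h of light was also listed as open in primordia was read from the overlap with the P vs. D lists. Both comparisons share the 2 D libraries, so the overlap is a description. Of the 234 peaks, 77 (32.9%) overlapped a peak gained in P vs. D by at least 1 bp, which was 73 (4.13%) of the 1768 peaks of that list. Only 1 peak (0.427%) overlapped a peak lost in P vs. D, which was 0.0523% of 1912. The peaks lost in P vs. D cover 1549530 bp in all and those gained 2724437 bp. The other 156 (66.7%) overlapped neither. The single exception lies on contig 39 from 373641 to 374463, is 823 bp wide and contains a 281 bp peak lost in P vs. D from 373891 to 374171. Both lists give the same score of 4.53, although one lists the region as gained and the other as lost. Of the 273 peaks lost in L vs. D, 48 (17.6%) overlapped a peak gained in P vs. D and 148 (54.2%) a peak lost in P vs. D.

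The overlap with the primordia list was larger at higher score and width. It was 16 of 83 peaks (19.3%) below a score of 3, 18 of 72 (25%) from 3 to 5, 32 of 64 (50.0%) from 5 to 10 and 11 of 15 (73.3%) at 10 or more. By width it was 10 of 50 under 200 bp and 36 of 120 (30.0%) from 200 to 500 bp, then 14 of 45 (31.1%) from 500 to 1000 bp and 17 of 19 (89.5%) at 1000 bp or more. A wider peak has more bases that can overlap. Median width was 410 bp in the 77 shared peaks and 282 bp in the 157 others, and median score 5.73 and 3.25. The 2 peaks of at least 1000 bp without an overlap were the widest and highest of the list, on contigs 39 and 174. The former lay 12274 bp from the nearest peak gained in P vs. D and 3015 bp from the nearest one lost, and contig 174 held no P vs. D peak at all. The other peaks with a score of at least 10 and no overlap were on contig 333 (311-1145) and contig 56 (137934-138320), the latter 1406 bp away from a peak gained in primordia. Peaks in clusters overlapped the primordia list in 34 of 62 cases (54.8%), and the other peaks in 43 of 172 (25%).

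**Figure D4:**
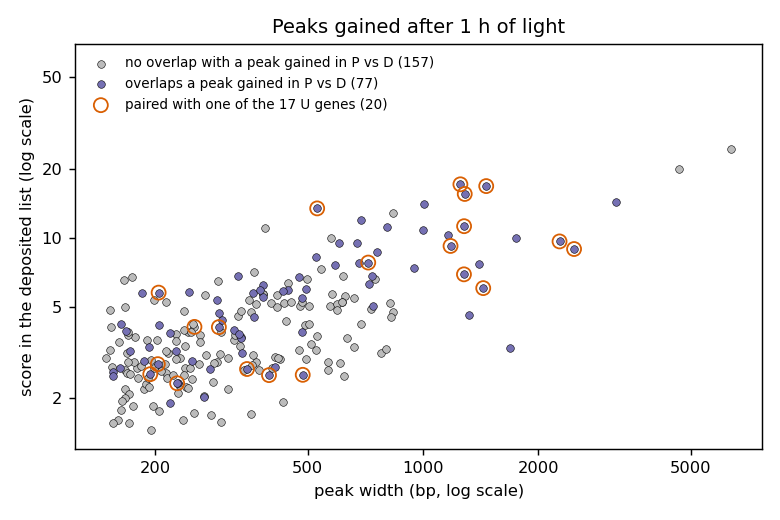
Score (y axis, log scale, unit not given) against width in bp (x axis, log scale) of the 234 peaks gained in L vs. D, 1 point per peak. Filled purple points are the 77 peaks that overlap a peak gained in P vs. D, grey points the 157 that do not, and orange rings mark the 20 peaks paired with 1 of the 17 U genes; the 2 peaks at the upper right, without overlap, lie on contigs 39 and 174.

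As a list, the peaks gained in P vs. D were wider than those gained in L vs. D (median 1319 bp against 328 bp). Those of them that overlapped had a median of 944 bp. Where the lists overlapped, the primordia peak was usually the wider. It was wider in 56 of 78 overlapping pairs, with a median ratio of widths of 1.48 (quartiles 0.965 and 3.39), and in 28 pairs it contained the L vs. D peak whole. In the median pair it covered 93.6% of the L vs. D peak. None of the 78 pairs had the same limits or the same score in both lists (0 and 0). On contig 63 the promoter peak of white collar 1 was 1284 bp wide in L vs. D, and the primordia peak was 3394 bp wide, from 62819 to 66212. On contig 16 a single primordia peak of 3590 bp, from 763980 to 767569, contained the second of the 2 peaks paired with U4 (764222-764514) and the peak paired with U5. The first peak of U4 met another primordia peak, of 1240 bp. The reverse happened once, where the 3186 bp peak of contig 16 met 2 primordia peaks. Some peaks without an overlap lay near one, as 32 of the 157 were within 1 kb of a peak gained in P vs. D and 68 were within 5 kb.

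The study paired 20 of the 234 peaks with 17 genes, coded U1 to U17, that it selected for higher RNA and more open chromatin both after light and in primordia. By its annotation 6 of these peaks lie in exons, 5 in promoters, 4 at the transcription end, 3 between genes and 2 in introns. Their median width was 624 bp and their median score 6.47, against 315 bp and 3.67 for the other 214 peaks. Of the 20, 19 overlapped a peak gained in P vs. D, which the selection favoured, and 58 of the other 214 did. The exception was the 253 bp peak of U1 on contig 1 from 1467314 to 1467566. The remaining 214 peaks were not assigned to genes here, because no annotation of SP-C was used.

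RNA counts come from other libraries than the peaks, but the study chose these 17 genes on the same counts, so their directions are not independent evidence. In the study's qRT-PCR, U1, U9, U14 and U16 were named as exceptions that did not show patterns similar to the sequencing. None of the 17 genes was called higher in L vs. D by edgeR's quasi-likelihood test (0 of 17, at an adjusted p of at most 0.05 with Benjamini-Hochberg adjustment and a fold above 1.2), nor any other of the 10627 genes tested (0%). An unadjusted p under 0.05 with a higher level was reached by 14 of 17 (683 genes or 6.43% over all), DESeq2 called 12 of 17 (1.78%), and in 14 of 17 every L library lay above every D library (9.58%). The genes that DESeq2 did not call after light were U1, U6, U7, U9 and U12. In P vs. D, edgeR called 11 of 17 higher (141 or 1.33% of 10606 genes tested) and 0 lower (209 or 1.97%), DESeq2 called 13 (4.68%), and 16 did not overlap between the groups (13.1%). For U10, DESeq2 gave no adjusted p in P vs. D. The 17 genes had a median log2 fold change of 3.01 after light and 4.24 in primordia, against 0.02 and 0.07 over all genes tested. All 17 passed the filter on low counts. Levels below are CPM, counts scaled to library size with TMM factors, for replicates 1, 2 and 3 in this order. Nothing in the labels states that these numbers pair libraries of different groups. In bulk samples fewer cells of a type and less RNA per cell cannot be told apart.

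White collar 1 (U15, Gglean010591), the blue-light receptor, stood at 127, 90.6 and 96.8 CPM in the dark, 201, 399.7 and 343 CPM in L and 1064, 231 and 984 CPM in P. Every L and P library lay above every D library. After light the log2 fold change was 1.59 (SE 0.29, edgeR adjusted p = 0.162). DESeq2 called the gene after light (DESeq2 adjusted p = 0.000161). In primordia it rose by 2.86 (SE 0.58, edgeR adjusted p = 0.0433), a call that ended when any library but primordia replicate 2 was left out. Gluconate transport inducer 1 (U11, Gglean007619), named after a fission yeast regulator of gluconate uptake, stood at 3.54, 7.65 and 5.81 CPM in the dark, 44.9, 99.3 and 62.2 CPM in L and 205, 319.8 and 87.3 CPM in P. In primordia it rose by 5.19 on the log2 scale (SE 0.58, edgeR adjusted p = 0.0079), and its log2 fold change after light was 3.60 (SE 0.41, edgeR adjusted p = 0.0895). Light replicate 2 was the highest of L for both genes.

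U10 (Gglean005727) is described as the precursor of SC4, which in Schizophyllum commune is a hydrophobin, a small secreted protein that coats air channels in fruiting bodies. It stood at 63.1, 35.2 and 231 CPM in the dark, 368, 5105 and 2293 CPM in L and 1686, 14884 and 1673 CPM in P. D overlapped neither L nor P, yet light replicates 1 and 2 and primordia replicates 2 and 3 lay far apart. After light its log2 fold change was 4.56 (SE 1.16, edgeR adjusted p = 0.235). In primordia it was 5.83 (SE 1.31, edgeR adjusted p = 0.0615), and called without primordia replicate 2, at 3.94. DESeq2 gave no adjusted p for U10 in primordia.

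Among genes of enzymes and transport, the putative methyltransferase U14 (Gglean008871) stood at 102, 92.1 and 159.6 CPM in the dark, 333, 2395 and 1005 CPM in L and 1411, 5998 and 3457 CPM in P. Dehydrogenase citC (U17, Gglean012354), named after a gene of citrinin synthesis in Monascus, stood at 4.67, 11.4 and 9.52 CPM in the dark, 30.8, 87.2 and 56.9 CPM in L and 996, 464 and 504 CPM in P. For both genes D overlapped neither L nor P, and both rose in primordia, U14 by 4.96 on the log2 scale (SE 0.69, edgeR adjusted p = 0.0129) and U17 by 6.27 (SE 0.56, edgeR adjusted p = 0.0042). The call of U14 ended without any 1 of the dark libraries (highest adjusted p 0.0951), whereas U17 was called under every alternative run. Phospholipid methyltransferase (U8, Gglean003319), an enzyme type that methylates phosphatidylethanolamine towards phosphatidylcholine, stood at 1.47, 3.14 and 6.02 CPM in the dark, 9.44, 184 and 58.6 CPM in L and 25.7, 213 and 48.3 CPM in P. Cysteine proteinase 1 (U16, Gglean010678), a protein-cleaving enzyme, had 0.934, 1.77 and 2.06 CPM in the dark, 3.18, 14.3 and 10.4 CPM in L and 20.6, 14.96 and 57.8 CPM in P. U8 and U16 both rose in primordia (edgeR adjusted p = 0.0398 and 0.0134). The call of U8 ended without any 1 of the dark libraries and with all 9 libraries in one fit (highest adjusted p 0.167), and that of U16 without dark replicate 1 or 2 (highest 0.0790). ATM1 (U3, Gglean002700), in yeast a mitochondrial exporter that iron-sulfur protein assembly in the cytosol needs, stood at 12.8, 84.2 and 6.14 CPM in the dark, 219.9, 307 and 395 CPM in L and 414, 294 and 612 CPM in P. Dark replicate 2 stood apart from the other dark libraries, and edgeR called the gene in neither comparison (log2 fold change 3.16 and adjusted p = 0.292 after light, 3.68 and 0.0935 in primordia). Without dark replicate 2 the log2 fold changes were 5.05 (edgeR adjusted p = 0.0793) and 5.54 (0.0182), and U3 was called in primordia. DESeq2 called it in both comparisons.

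A further 4 genes were not called by edgeR in either comparison. The splicing factor CWC22 (U6, Gglean003085), which had 2 gained exon peaks of 529 and 194 bp, 184 bp apart, stood at 2.11, 2.77 and 3.17 CPM in the dark, 3.86, 5.64 and 6.27 CPM in L and 4.56, 4.50 and 8.11 CPM in P (log2 fold change after light 0.96, SE 0.28, edgeR adjusted p = 0.280). The SH3 domain protein U9 (Gglean005067) stood at 240.0, 311 and 267 CPM in the dark, overlapping the 201, 363 and 378 CPM of L, and at 1867, 321 and 377 CPM in P. Dehydrogenase patE (U1, Gglean000572), named after a patulin gene of Penicillium, stood at 46.6, 87.5 and 32.1 CPM in the dark, overlapping the 93.9, 85.0 and 90.4 CPM of L. The LON and RING finger protein (U12, Gglean008695) stood at 64.3, 68.9 and 77.1 CPM in the dark, 99.2, 209.9 and 119 CPM in L and 2684, 109 and 907 CPM in P. U12 in primordia (log2 fold change 4.14, edgeR adjusted p = 0.0774) was called by DESeq2 (4.13), by edgeR with all 9 libraries in one fit (4.14) and by edgeR without primordia replicate 2 (4.68).

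The remaining 5 genes encode hypothetical proteins. U5 (Gglean002890), beside the peak of score 16.8 on contig 16, stood at 2.56, 2.37 and 2.43 CPM in the dark, 68.4, 244 and 143 CPM in L and 169, 427 and 122 CPM in P. The difference after light, 5.95 on the log2 scale (SE 0.52, edgeR adjusted p = 0.0546), was the largest of the 17. U5 was called after light by DESeq2, by edgeR without a filter on low counts and by edgeR with all 9 libraries in one fit. It was also called by edgeR without light replicate 1 (6.30) or without light replicate 2 (5.43). In the other edgeR runs it was not called (highest adjusted p 0.37). In primordia it rose by 6.63 (SE 0.59, edgeR adjusted p = 0.0042). U13 (Gglean008796), with the promoter peak of contig 45, stood at 11.8, 11.5 and 10.6 CPM in the dark, 25.5, 176 and 106 CPM in L and 145, 149 and 72.6 CPM in P, and rose in primordia by 3.45 on the log2 scale (SE 0.34, edgeR adjusted p = 0.0050). U4 (Gglean002720) had 0, 1 and 2 counts in the D libraries, 16, 27 and 15 in L and 15, 16 and 29 in P, a ratio of 17.02 for L over D after scaling with a 95% exact binomial interval of 5.54 to 85.0 that covers counting error only. U2 (Gglean002577) stood at 15.04, 3.51 and 9.40 CPM in the dark, 108, 24.9 and 91.4 CPM in L and 395, 71.6 and 517 CPM in P. U7 (Gglean003249) stood at 56.0, 54.3 and 83.6 CPM in the dark, overlapping the 46.5, 206 and 116 CPM of L, and at 169.6, 209 and 154 CPM in P. U2, U4 and U7 rose in primordia (edgeR adjusted p = 0.0252, 0.0275 and 0.0296), but each call ended without any 1 of the dark libraries or without primordia replicate 1, that of U4 also without primordia replicate 3, and that of U7 also with all 9 libraries in one fit. The highest adjusted p over the alternatives was 0.1005 for U2, 0.102 for U4 and 0.172 for U7.

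Libraries of the light group differed for these genes as a whole. Light replicate 1 had the lowest level of L in 15 of the 17 genes, and light replicate 2 the highest in 12. GAPDH, which the study used as the reference gene of its qRT-PCR, stood at 3361, 2506 and 2069 CPM in the dark, 2864, 821 and 1819 CPM in L and 4374, 647 and 2250.3 CPM in P, lowest in light replicate 2 and primordia replicate 2. Without light replicate 1, edgeR called 3 of the 17 genes higher after light (U5, U11 and U13), and 12 of all 10665 genes tested. Without light replicate 2 it called 1 (U5), and 2 of all 10661. Without primordia replicate 2 it called 13 higher in primordia (404 of all 10672 genes), against 11 with all libraries (141 of 10606). Reads counted in genes ran from 20798190 to 27706995 per library.

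**Figure D5:**
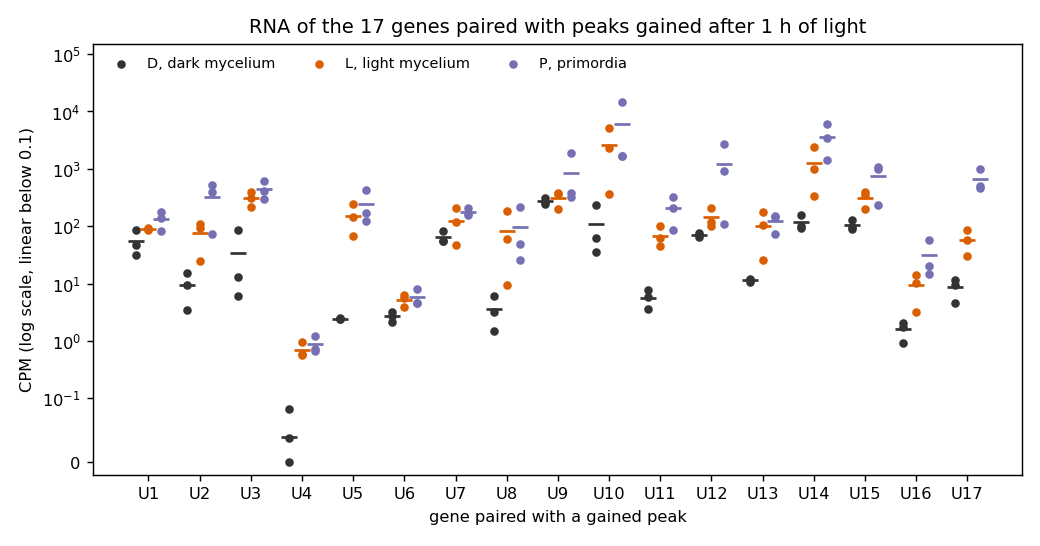
RNA level in CPM (y axis, log scale, linear below 0.1) of the 17 genes paired with gained peaks (x axis, codes of the study), 1 point per library for D, L and P and a dash for the mean of 3. Mean levels in L lie above those in D for all 17 genes, with every L library above every D library for 14 of them (9.58% of all genes tested). Mean levels in P lie above those in L for all 17.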

How the data were processed

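The authors trimmed ATAC-seq reads with cutadapt, mapped them with BWA 0.7.10 to the SP-C contigs, joined the samples of each group by the merge command of BEDTools, and took peaks from MACS2 2.1.1. Neither shifting of read ends nor removal of duplicates is described in the study's methods. The deposited lists of differential peaks hold a score per peak in an unknown unit. Positions are 1-based on the contigs of the SP-C assembly. For RNA-seq, the authors deposited raw counts per gene (cutadapt, STAR, HTSeq 0.6.1). The deposited signal columns are these counts divided by a size factor per library. The deposited log2 fold changes and the deposited p-values are the authors' DESeq2 comparison. These columns were not used. The strand setting of HTSeq was not stated, which leaves overlapping and antisense genes uncertain.

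Widths, distances, clusters (neighbours within 5 kb) and overlaps (at least 1 bp) were computed in Python 3.11.15 with pandas 2.3.3. Counts of the 3 libraries per group were tested on all genes with edgeR 4.0.16 (TMM, filterByExpr, quasi-likelihood test), separately for light and primordia against D, and with DESeq2 1.42.0 (R 4.3.3). SE was derived as the absolute unshrunken log2 fold change over the root of F. CPM were scaled over all 9 libraries. The scripts were tested on simulated data. Named genes are those the study paired with a gained peak, and GAPDH; named peaks are the 5 highest and 5 lowest scores, the 5 widest, the 3 clusters with most peaks, the 5 highest-scoring overlaps, any overlap with the list lost in primordia and the gene peaks; all other peaks and clusters were named after their values were seen. The members, lists and rules were chosen with earlier results of these data known. The study calls its replicates biological, but nothing states that they were separate cultures, so p-values measure only the spread between these samples. Alternatives were a score of at least 5, a reciprocal overlap of 50%, 2 or 10 kb, DESeq2, its size factors in edgeR, other filters, a replicate block, all 9 libraries in one fit and each library left out. Of 11204 gene IDs, 0 matched the reference table, which is of another strain, and sequence was not analysed here.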

Additional observations from a re-analysis of the deposited data

How the results depend on the processing

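At a score of at least 5, 79 peaks were left, with a median width of 575 bp on 38 contigs, and 18 of them lay within 5 kb of another. Of these 79, 43 overlapped a peak gained in P vs. D and 36 one that also scored at least 5. A reciprocal overlap of 50% left 39 shared peaks of 234. The single overlap with a peak lost in P vs. D went to 0 under each of these 3 settings. With 2 or 10 kb in place of 5 kb, 55 or 72 peaks had a near neighbour. In L vs. D, where edgeR called 0 genes, DESeq2 called 404 genes (12 of the 17 U genes), and edgeR called 2 (1 U gene) without a filter and 2 (1) with all 9 libraries in one fit. Leaving out a library gave 0 to 15 genes and 0 to 3 U genes, with 15 and 3 without light replicate 1 and 2 and 1 without light replicate 2. In P vs. D, where edgeR called 350 genes (11 U genes), DESeq2 called 1163. Leaving out a library gave 73 to 727 genes and 4 to 13 U genes. The U genes called were 4, 5 and 5 without dark replicate 1, 2 and 3, and 7, 13 and 9 without primordia replicate 1, 2 and 3. Over all genes tested, the same runs called 20, 60, 41, 72, 404 and 127 genes higher, against 141 with all libraries. With a replicate block edgeR called 0 genes in L vs. D, 89 in P vs. D and 6 U genes in P vs. D, where U4, U7, U8, U14 and U15 lost their calls. Replicate numbers share no origin in the labels. Deviations of same-numbered libraries correlated at 0.27, -0.33 and -0.20 (D with L) and 0.02, -0.39 and -0.29 (D with P). Deviations within a group of 3 add up to 0 for each gene, so these values cannot decide whether the numbers pair libraries. The direction of the U genes did not turn in any of 408 gene and setting pairs, in 351 of which the call also stayed. The study chose these genes for this direction on the same counts, and the runs share libraries. The stable direction is therefore no separate evidence. GAPDH in primordia, at -0.12 (log2), ran from -0.87 to 0.32 with a library left out and turned to 0.10 without dark replicate 1 and 0.32 without primordia replicate 2. The cause of these changes was not tested. The number of ATAC-seq libraries and the lack of values per library limit all statements on peaks to the lists.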
